A study of Mus musculus with 6 samples.

Results

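The 10 genes described here encode muscle-type actins and proteins that bind actin in contractile fibres and focal adhesions: Acta1, Acta2, Actc1, Actg2, Cnn1, Tagln, Myl9, Tpm1, Tpm2 and Zyx. They were chosen by symbol from the 17189 genes of the deposited count table, with their values in cKO and control cells already known, so their differences between the groups are given as a description and support nothing. All 10 are listed in the table, and 8 passed the filter on low counts; Actg2 and Tpm2 did not. The cells are ureteric bud (UB) cells, the epithelium whose branches become the collecting ducts of the kidney, sorted by fluorescence from mouse embryos at E16.5. The cKO embryos had the genotype Hoxb7Cre-GFP+ with Ash2l F/F, so both Ash2l alleles were floxed, and the control embryos had Hoxb7Cre-GFP+ with Ash2l F/+, so they carried the same Cre-GFP transgene and 1 floxed allele. Hoxb7 sequences drive Cre in the ureteric bud lineage. Neither group was treated. Each group has 3 libraries. The labels do not say whether a library is a single embryo or a pool, so a p-value speaks only of how far these libraries spread.

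ASH2L works with the MLL and SET1 enzymes, which place methyl groups on histone H3 at promoters in use. Muscle actins, calponin, transgelin and zyxin are textbook targets of serum response factor (SRF), a transcription factor that binds the CArG box, which is an A/T-rich core flanked by CC and GG. When actin monomers are built into filaments, the coactivators MRTF-A and MRTF-B are released and drive SRF at contractile and cytoskeletal genes, while ternary complex factors of the ETS family drive SRF at immediate early genes. In the kidney these contractile genes are best known from smooth muscle, pericytes and myofibroblasts, and the ureteric epithelium relies mainly on the cytoplasmic actins.

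Promoter sequences were available for 8 of the 10 genes, as windows from 250 bases before to 50 bases after the transcription start annotated by RefSeq on GRCm38.p6. Tagln and Actg2 had no entry. Each window was searched on both strands. The CArG box was in 3 of the 8 windows, those of Acta1, Actc1 and Myl9, and in 1.63% of all 32851 windows of that length. With 1 mismatch allowed in the A/T core it was in 4 of 8, Acta2 being added, and in 9.98% of all windows. The 210 bases before the start are shown for these 4 genes because they hold every such box found, with exact and 1-mismatch boxes in capitals.
Acta1 (chr8:123894776-123894985, minus strand): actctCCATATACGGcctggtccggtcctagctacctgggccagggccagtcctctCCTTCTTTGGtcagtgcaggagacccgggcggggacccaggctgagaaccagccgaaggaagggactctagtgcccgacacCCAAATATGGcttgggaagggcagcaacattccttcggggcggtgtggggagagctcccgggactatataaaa
Acta2 (chr19:34255374-34255583, minus strand): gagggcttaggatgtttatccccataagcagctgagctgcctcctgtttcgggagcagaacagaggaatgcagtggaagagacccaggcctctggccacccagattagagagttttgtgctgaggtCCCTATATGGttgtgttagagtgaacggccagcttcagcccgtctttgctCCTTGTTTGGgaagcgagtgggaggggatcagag
Actc1 (chr2:114052876-114053085, minus strand): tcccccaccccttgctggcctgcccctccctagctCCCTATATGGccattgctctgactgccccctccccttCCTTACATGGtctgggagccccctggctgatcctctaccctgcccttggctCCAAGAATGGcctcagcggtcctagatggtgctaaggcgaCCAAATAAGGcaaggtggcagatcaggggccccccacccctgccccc
Myl9 (chr2:156775254-156775463, plus strand): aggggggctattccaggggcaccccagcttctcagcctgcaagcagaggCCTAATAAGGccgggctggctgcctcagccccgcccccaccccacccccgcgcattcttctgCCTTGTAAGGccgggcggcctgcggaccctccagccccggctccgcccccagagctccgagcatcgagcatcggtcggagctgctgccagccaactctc
The exact boxes were CCAAATATGG in Acta1 at -73 to -64 from the start, CCAAATAAGG in Actc1 at -47 to -38 and CCTAATAAGG in Myl9 at -161 to -152. Actc1 had 3 further boxes with 1 mismatch, Acta1 had 2, Acta2 had 2 and Myl9 had 1. The box CCCTATATGG, with 1 mismatch, was in both the Actc1 and the Acta2 window. The motif GGAATG, bound by TEAD factors, was in the windows of Acta1, Acta2 and Tpm1 (3 of 8, against 14.7% of all windows). The letters TATAAA were in those of Acta1 and Actc1 (2 of 8, against 13.6%). No 2 matches of different motifs overlapped in these windows. Cnn1, Tpm2 and Zyx held none of these letters in the window.

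**Figure D1:**
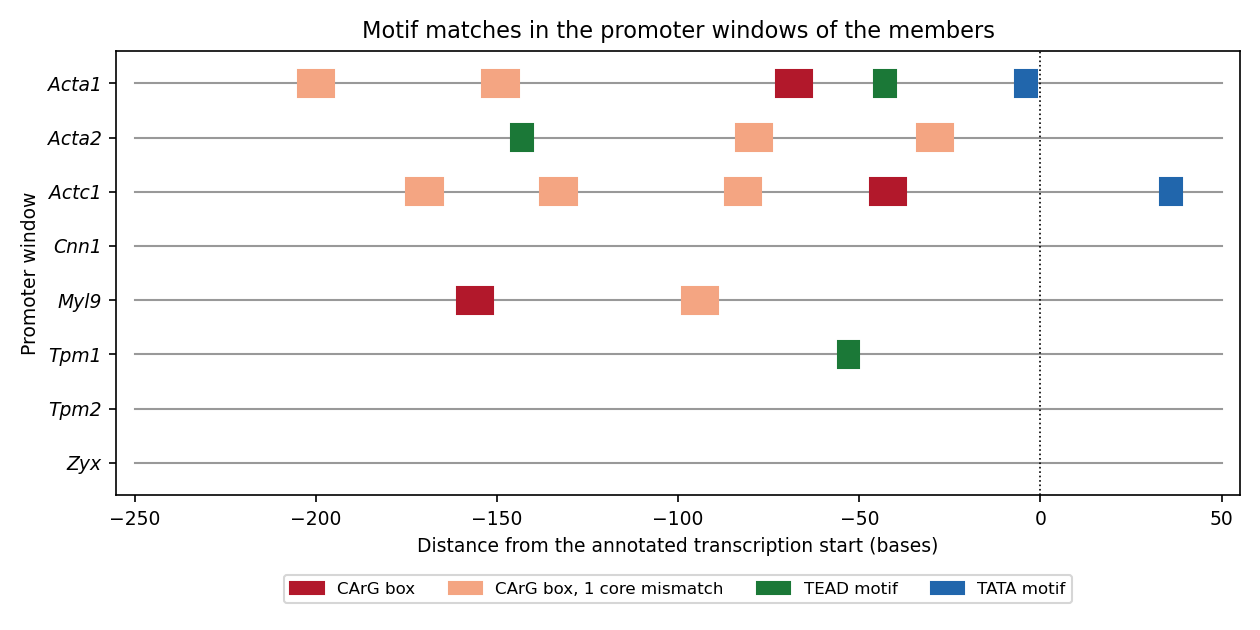
Motif matches along the promoter windows of the 8 genes with a sequence; the x axis is the distance from the annotated start in bases, the y axis the gene, and the boxes are CArG boxes (exact, or with 1 mismatch in the core), the TEAD motif and the TATA motif. Exact CArG boxes lie before the start in Acta1, Actc1 and Myl9.

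Library totals were 9620235 to 9860475 counts in cKO and 10359475 to 10538314 counts in controls. Ash2l had 451, 292 and 214 counts in cKO replicates 1, 2 and 3, against 1933, 1853 and 1624 counts in control replicates 1, 2 and 3. The log2 fold change of Ash2l was -2.43 (edgeR adjusted p = 0.00786). Replicate 3 of cKO stood apart: of 11738 genes that all other libraries detected with over 10 counts, it had no count for 1453 (12.4%), whereas the same measure gave 3 genes or fewer for each of the rest. The counts of called genes in each list are given with and without it. Of the Y-linked genes Ddx3y had 392 to 1044 counts in the controls and 0 in each cKO library, and Uty and Kdm5d were likewise at 0 in cKO only. Eif2s3y had 0, 0 and 504 counts in cKO and 736, 815 and 439 in controls. For cKO replicates 1 and 2 the lack of Y-linked reads and the genotype cannot be told apart.

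Levels below are CPM, read counts brought to a common library size with TMM factors, and log2 fold changes of cKO over control come from edgeR's quasi-likelihood fit over all 13047 genes past the filter. A change was called at a Benjamini-Hochberg adjusted p under 0.05. By that rule 8 of the 8 fitted members rose, beside 3.52% of all genes tested (7.11% in either direction), and without cKO replicate 3 it was 9 of 9 (Actg2 then passed the filter), beside 13.7%. It was 6 of 8 without cKO replicate 1 and 3 of 8 without cKO replicate 2, and 3, 4 and 3 of 9 without control replicate 1, 2 and 3. All 8 had every cKO library above every control, beside 16.7% of genes tested, and 20.7% had every cKO library below. Nothing is read from these counts, since the members were picked with this comparison in view. Actc1 and Cnn1, and Actg2 where it was fitted, had at most 7 counts in any control. They passed the filter through their cKO counts alone, so nothing is read from their direction either. The median log2 fold change of the 8 was 3.61, against -0.04 over all genes tested, and it was 3.61 over all 10 when no gene was filtered out.

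The 3 alpha-actins had few reads in controls. Acta1, skeletal alpha-actin, was at 206, 138 and 138 CPM in the cKO libraries, against 1.57, 3.90 and 6.75 CPM in the controls. Acta2, smooth muscle alpha-actin and the usual marker of myofibroblasts, was at 56.5, 30.6 and 33.1 CPM in cKO and at 4.71, 4.95 and 1.47 CPM in controls. Actc1, cardiac alpha-actin, was at 78.7, 40.5 and 28.4 CPM in cKO and at 0, 0.190 and 0.684 CPM in controls. For each of these genes every cKO library lay above every control, with the first cKO library highest. The log2 fold change was 5.30 for Acta1 (SE 0.506), 3.43 for Acta2 (SE 0.553) and 7.34 for Actc1 (SE 0.986). The Actc1 value rests on 9 counts over the controls, against 1454 over cKO, and it moved between 6.77 without control replicate 1 and 8.81 without control replicate 3.

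Actg2, the enteric smooth muscle gamma-actin, had 19, 10 and 0 counts in cKO and 0 in each control. Pooled over libraries it was at least 10.1-fold higher in cKO, taking 3 counts over the control group as the most that a count of 0 allows. The third cKO library is at 0, so the groups overlap. The muscle actins have closely similar sequences, and the sources used here do not say how reads shared between actin genes were counted, so the split of reads among Acta1, Acta2, Actc1 and Actg2 is uncertain.

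The calponin and transgelin genes, whose products bind actin filaments in smooth muscle, resembled the actins. Cnn1 was at 76.5, 41.8 and 25.7 CPM in cKO, against 0.196, 0.476 and 0.684 CPM in controls (log2 fold change 6.69, SE 0.661). Tagln was at 69.3, 31.7 and 35.3 CPM in cKO, against 3.34, 4.47 and 2.05 CPM in controls (3.78, SE 0.478). Neither gene's groups overlapped. Cnn1 and Actc1 were both highest in the first cKO library and lowest in the third, while Tagln and Acta2 were lowest in the second.

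The genes already expressed in controls differed less. Myl9, the regulatory light chain of smooth muscle myosin, was at 83.0, 74.8 and 47.2 CPM in cKO and at 16.6, 19.2 and 18.3 CPM in controls (log2 fold change 1.92, SE 0.257). Zyx, which encodes the focal adhesion protein zyxin, was at 102, 109 and 110.2 CPM in cKO and at 41.9, 55.1 and 51.5 CPM in controls (1.11, SE 0.149). Tpm1, alpha-tropomyosin, was at 541, 474 and 570.3 CPM in cKO and at 404, 394 and 390.2 CPM in controls (0.41, SE 0.0951). All 3 had every cKO library above every control, and Tpm1 and Zyx were highest in the third cKO library rather than the first. Tpm2, beta-tropomyosin, was the exception among the 10: it had 2, 7 and 0 counts in cKO and 5, 14 and 9 in controls, and its groups overlapped.

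**Figure D2:**
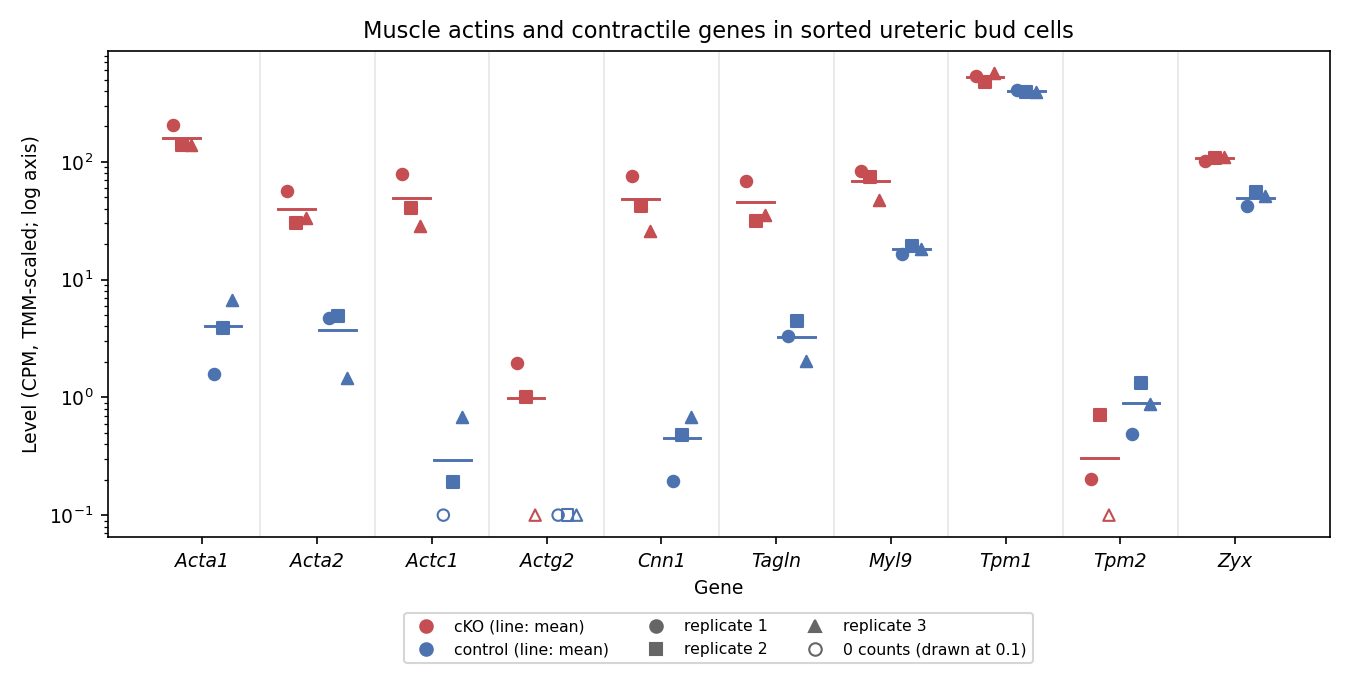
Level of each of the 10 genes in each library, in CPM on a log axis, with cKO left of control, a symbol for each replicate and a line at the group mean; libraries with 0 counts are drawn as open symbols at 0.1. Every cKO library lies above every control library except for Actg2 and Tpm2.

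The libraries of 1 group varied more for some of these genes than for others. The SD between cKO libraries was 54.0% of the mean for Cnn1, 53.3% for Actc1 and 45.6% for Tagln, but 9.38% for Tpm1 and 3.83% for Zyx. Between controls it was 121% for Actc1, where counts are few, and 1.85% for Tpm1. Ash2l itself was at 46.1, 29.7 and 21.4 CPM in cKO replicates 1, 2 and 3, against 159 to 189.8 CPM in controls. The first cKO library, with the highest remaining Ash2l level, was also highest for 7 of the 10 genes; a relation between them was not tested.

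Per kilobase of transcript, as FPKM, the order of the members differed between the groups. In cKO Acta1 averaged 104 ± 23.2 FPKM and Tpm1 101 ± 9.27 FPKM (SD, n = 3 each), which overlapped. They were followed by Myl9 at 58.8 ± 15.6 FPKM. Actc1 (33.9 ± 17.5 FPKM), Cnn1 (29.8 ± 15.6), Tagln (28.9 ± 12.6) and Zyx (24.7 ± 1.35) came next and did not differ beyond their spread. Acta2 was at 14.3 ± 4.81 FPKM. Actg2 averaged 0.752 and Tpm2 0.122 FPKM. In controls Tpm1 led at 73.8 ± 1.75 FPKM, before Myl9 (15.1 ± 1.21) and Zyx (11.1 ± 1.58). Acta1 (2.55 ± 1.6 FPKM), Tagln (2.05 ± 0.776) and Acta2 (1.29 ± 0.686) were below these and overlapped, and Tpm2, Cnn1 and Actc1 were under 1 FPKM, with Actg2 listed at 0.

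Each member was also set against its closest relatives outside the 10 genes, called non-muscle relatives below. The muscle actins made up 5.46%, 3.76% and 3.55% of the summed FPKM of 6 actin genes in the cKO libraries, against 0.0937%, 0.142% and 0.149% in the controls; Actb and Actg1 made up the rest in both groups. Cnn1 accounted for 4.66 ± 2.08% of calponin FPKM in cKO and 0.0656 ± 0.0347% in controls. Tagln accounted for 9.68 ± 4.76% of transgelin FPKM in cKO and 1.12 ± 0.389% in controls. Myl9 accounted for 8.14 ± 2.10% of its light chain family in cKO and 1.65 ± 0.249% in controls. Tpm1 with Tpm2 accounted for 25.2 ± 2.30% of tropomyosin FPKM in cKO and 17.3 ± 1.21% in controls, and Zyx for 12.6 ± 1.71% of its family in cKO and 6.42 ± 0.645% in controls (SD, n = 3 each). These shares are built from the members' own values and were not tested.

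**Figure D3:**
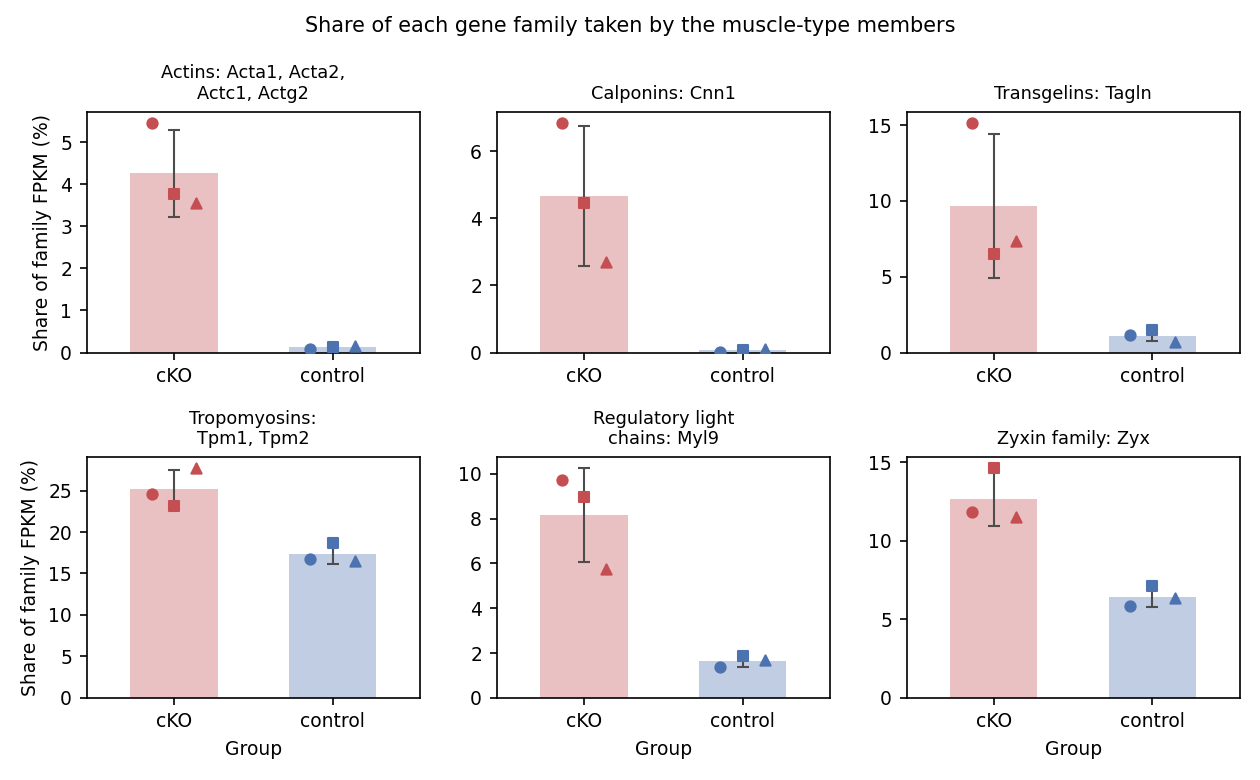
Share of the summed FPKM of each gene family taken by the members named above each panel, in percent, for cKO (left) and control (right); bars are means, error bars SD over 3 libraries and points the libraries. These members include Zyx, a focal adhesion gene, and Tpm1, the highest member in controls, so not all are particular to muscle. The muscle actins take between 3.55% and 5.46% of actin FPKM in cKO and at most 0.149% in controls.

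Most of the non-muscle relatives themselves, which are not members, were not called. Of 18 such genes 16 were tested; 3 rose, 1 fell and 12 were not called, with a median log2 fold change of 0.02. Over all genes tested 3.52% rose and 3.59% fell. Actb, cytoplasmic beta-actin and the most abundant actin, had 53549, 49849 and 50111 counts in cKO and 43658, 46338 and 54110 counts in controls (log2 fold change 0.15, SE 0.103, edgeR adjusted p = 0.451). Actg1, cytoplasmic gamma-actin, had 13952, 12021 and 12426 counts in cKO and 12070, 15798 and 15720 in controls (-0.12, SE 0.126, adjusted p = 0.647). The cKO and control libraries overlapped for both.

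The relatives that rose were Tagln2, a transgelin of many non-muscle cells (0.56, SE 0.0961, edgeR adjusted p = 0.021), Cnn3, the calponin found outside muscle (0.49, SE 0.112, adjusted p = 0.0493), and Myl6, an essential myosin light chain (0.45, SE 0.0936, adjusted p = 0.0398). Myl12b, a non-muscle regulatory light chain, fell: it averaged 304 ± 13.6 CPM in cKO and 610.2 ± 58.0 CPM in controls (SD, n = 3 each; log2 fold change -1.003, SE 0.0994, adjusted p = 0.00571). Its neighbour in function Myl12a was not called (0.26, SE 0.0874, adjusted p = 0.136). Tpm3 (-0.29, SE 0.0971, adjusted p = 0.137) and Tpm4 (-0.28, SE 0.107, adjusted p = 0.183), the tropomyosins of non-muscle cells, lay below controls in every cKO library without being called, and so did Cnn2 (-0.76, SE 0.272, adjusted p = 0.152). Of the zyxin family, Trip6 (-0.56, SE 0.183, adjusted p = 0.128), Lpp (0.48, SE 0.181, adjusted p = 0.177) and Ajuba (0.84, SE 0.196, adjusted p = 0.0531) were not called by edgeR. With 1 library left out at a time Myl12b was called in 6 of 6 tests, Tagln2 in 2, and Cnn3 and Myl6 in 1 each. Without control replicate 3 the edgeR adjusted p was 0.115 for Tagln2, 0.162 for Cnn3 and 0.177 for Myl6. Without cKO replicate 3, 6 of 17 relatives rose and 4 fell, beside 13.7% and 14.9% of all genes. The rises include a gene that passed the filter only without that library, which can happen through cKO counts alone.

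Of 28 other genes of the smooth muscle contractile apparatus 18 were tested, of which 2 rose, 1 fell and 15 were not called, and the median log2 fold change was 0.54. Those that rose were 11.1% of the list and those that fell 5.56%, beside 3.52% and 3.59% of all genes tested. Cryab, a small heat shock protein abundant in muscle, averaged 29.9 ± 5.68 CPM in cKO and 6.88 ± 1.03 CPM in controls (SD, n = 3 each; 2.12, SE 0.321, edgeR adjusted p = 0.0148). Palld, the actin-bundling protein palladin, rose too (2.33, SE 0.521, adjusted p = 0.0473). Fhl1, a LIM protein of muscle, fell to 29.2 ± 11.2 CPM in cKO, against 163 ± 6.50 CPM in controls (SD, n = 3 each; -2.48, SE 0.303, adjusted p = 0.0085). With 1 library left out at a time Fhl1 was called in 4 of 6 tests, and Cryab and Palld in 1 each. The highest edgeR adjusted p, without control replicate 3 for all of them, was 0.0863 for Cryab, 0.184 for Palld and 0.0551 for Fhl1. Of 20 tested without cKO replicate 3, 9 rose (45%, beside 13.7% of all genes) and 3 fell (15%, beside 14.9%). Some of these rises were of genes that passed the filter only without that library, which can happen through cKO counts alone.

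The genes that define differentiated smooth muscle had few counts. Myh11, smooth muscle myosin heavy chain, had 6, 0 and 139 counts in cKO and 0, 6 and 2 in controls. Des, desmin, had 6, 11 and 0 counts in cKO and 0, 2 and 0 in controls, and Lmod1, leiomodin, had 48, 27 and 3 in cKO and 0, 9 and 3 in controls. Myocd, the smooth muscle coactivator of SRF, had 4, 0 and 0 counts in cKO and 0 in each control. None of these 4 passed the filter, and the 139 counts of Myh11 are in the cKO library that stood apart.

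Genes of focal adhesions and the actin cortex, the setting in which zyxin acts, were also mixed. Of 28 tested, 3 rose, 1 fell and 24 were not called, with a median of -0.13. Those that rose were 10.7% of the list and those that fell 3.57%, beside 3.52% and 3.59% of all genes tested. Tes, which encodes the zyxin-binding LIM protein testin, averaged 385 ± 5.28 CPM in cKO and 241 ± 8.04 CPM in controls (SD, n = 3 each; 0.68, SE 0.0792, edgeR adjusted p = 0.00784). Fblim1, a filamin-binding LIM protein (0.69, SE 0.144, adjusted p = 0.0399), and Fermt2, the integrin activator kindlin-2 (0.77, SE 0.167, adjusted p = 0.0428), rose as well. Fermt1, the epithelial kindlin, fell (-2.78, SE 0.502, adjusted p = 0.0259). With 1 library left out at a time Tes was called in 4 of 6 tests and the other 3 in 1 each; the highest adjusted p was 0.0559 for Tes, 0.124 for Fermt1 and 0.189 for Fermt2 without control replicate 3, and 0.17 for Fblim1 without control replicate 2. Of 29 tested without cKO replicate 3, 7 rose (24.1%, beside 13.7% of all genes) and 4 fell (13.8%, beside 14.9%). Among the rises is a gene that passed the filter only without that library, which can happen through cKO counts alone.

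SRF and its cofactors were not called. Srf had 133, 114 and 4 counts in cKO and 58, 107 and 113 in controls (log2 fold change -0.07, SE 1.06, edgeR adjusted p = 0.979), and without cKO replicate 3 its log2 fold change was 0.48 (SE 0.34, adjusted p = 0.324). Mrtfa, which encodes MRTF-A, was at -0.37 (SE 0.449, adjusted p = 0.702) and Mrtfb at 0.09 (SE 0.178, adjusted p = 0.822). Of the 14 genes of this list that were tested none passed, with a median of -0.32; by DESeq2 the number was 0, and at an unadjusted p under 0.05 in edgeR it was 3. Without cKO replicate 3, 2 of 15 fell (13.3%, beside 14.9% of all genes) and none rose (beside 13.7%). These are transcript levels, and the coactivators are controlled by their location in the cell, which was not measured.

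Among immediate early genes, the other class of SRF targets, levels ranged widely. Of 14 tested 2 rose (14.3%, beside 3.52% of all genes tested) and none fell, with a median of 0.52. Egr3, a zinc finger factor, averaged 19.3 ± 7.25 CPM in cKO and 2.07 ± 0.440 CPM in controls (SD, n = 3 each; 3.21, SE 0.516, edgeR adjusted p = 0.0179), and Arc, an activity-induced gene, rose by 1.93 (SE 0.430, adjusted p = 0.0473). Egr1 (-0.37, SE 0.215) and Fos (0.39, SE 0.336) were not called (adjusted p = 0.368 and 0.564). The first control library was low for this class: Fos had 30439, 28503 and 38806 counts in cKO and 13182, 29082 and 35398 counts in controls. Arc was called in 0 of 6 tests with 1 library left out (highest adjusted p = 0.166, without control replicate 2), and Egr3 in 1 (0.0984 without control replicate 3). Without cKO replicate 3, 2 of 14 rose (14.3%, beside 13.7% of all genes) and none fell. The 2 were Egr3 and Mcl1 (edgeR adjusted p = 0.000111 and 0.0332), while Arc was not called (0.0742).

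Targets of YAP and TEAD, some of which SRF also drives, included large rises. Of 16 genes of that pathway tested, 3 rose (18.8%, beside 3.52% of all genes tested) and none fell, with a median of 0.56. Ankrd1, an ankyrin repeat protein of stressed muscle, had 2874, 1378 and 1052 counts in cKO and 15, 25 and 58 in controls (5.82, SE 0.641, edgeR adjusted p = 0.00661). Ccn2, a matricellular growth factor, had 9935, 7857 and 7824 counts in cKO and 472, 897 and 1166 in controls (3.40, SE 0.334, adjusted p = 0.0057). The kinase gene Nuak2 rose by 2.42 (SE 0.337, adjusted p = 0.0122). Ankrd1 and Ccn2 were called without each library in turn, and Nuak2 in 3 of 6 such tests (0.0738 without control replicate 2). Yap1 (-0.08, SE 0.185, adjusted p = 0.851) was not called. Without cKO replicate 3, 5 of the 16 rose (31.2%, beside 13.7% of all genes) and 1 fell (6.25%, beside 14.9%).

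**Figure D4:**
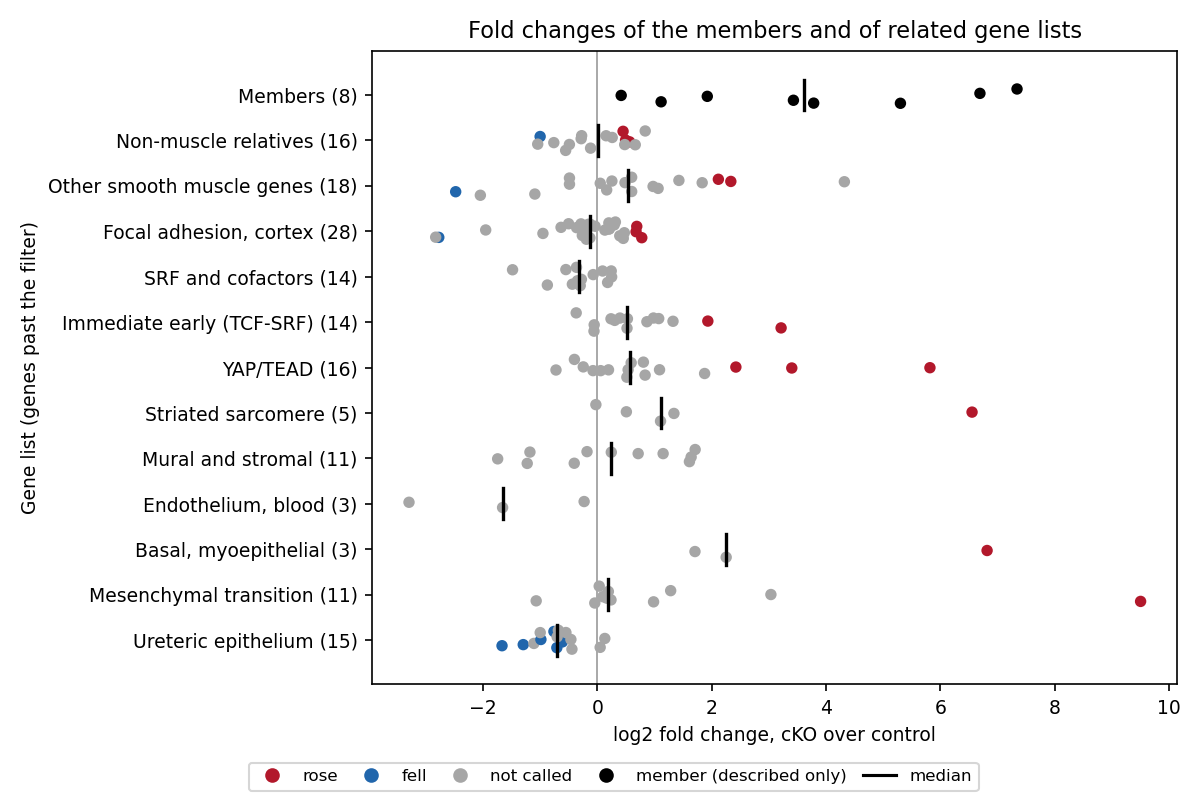
Log2 fold change of cKO over control for each gene past the low-count filter, by gene list, with the number of genes in brackets; red genes rose and blue genes fell at an edgeR adjusted p under 0.05, grey genes were not called, members are black and described only, and the black bar is the list median. The members lie between 0.41 and 7.34, while the medians of SRF with its cofactors and of non-muscle relatives are -0.32 and 0.02; the point at the far right, Cdh2, had 0 counts in every control.

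The profiles most like those of 4 members were sought over all tested genes, as the smallest root mean square difference in log2 CPM over the 6 libraries after each gene was centred on its control mean. Nearest to Actc1 were Cnn1 (0.55), the stress keratin Krt17 (0.61) and Gpha2 (0.71). Nearest to Cnn1 were Ankrd1 (0.36), Krt17 (0.44) and Actc1 (0.55). Nearest to Acta2 were Tagln (0.31), the galectin Lgals7 (0.44) and the small heat shock protein Hspb8 (0.45), and nearest to Tagln were Hspb8 (0.29), Acta2 (0.31) and Cyp4a12a (0.33). Members were thus among each other's nearest genes for all 4. The size of the group difference, by which the members were chosen, enters these distances.

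Markers of cells that normally express muscle actins were set beside these values. In the bulk libraries, more cells of a type and more RNA per cell cannot be told apart. Of 17 markers of mural and stromal cells 11 were tested, none rose or fell in edgeR (1 at an unadjusted p under 0.05 and 0 by DESeq2), and their summed level was 56.9 to 132 CPM in cKO and 58.0 to 66.4 CPM in controls. Mcam, an adhesion molecule of pericytes, averaged 38.6 CPM in cKO and 17.4 CPM in controls, with every cKO library above every control (log2 fold change 1.15, edgeR adjusted p = 0.155, and 0.0188 without cKO replicate 3). Rgs5 averaged 14.9 CPM in cKO and 4.54 CPM in controls, with 311 of its 444 cKO counts in replicate 3; its log2 fold change was 1.71, and 0.57 without that library. Ren1 averaged 14.8 CPM in cKO and 4.74 CPM in controls, and its groups overlapped. Cspg4 and Dcn were lower in every cKO library than in every control. Cspg4 had 0, 1 and 0 counts in cKO and 26, 20 and 5 in controls, and was not tested. Dcn had 11, 14 and 0 counts in cKO and 17, 33 and 39 in controls, and was not called. Of the 11 markers tested, 6 had a positive and 5 a negative log2 fold change. Foxd1, which marks stromal progenitors, had 0 counts in every cKO library and 0, 0 and 5 in controls, and Pdgfra had 5, 4 and 0 in cKO and 3, 3 and 5 in controls. The sum was 56.9, 132 and 98.1 CPM in cKO replicates 1, 2 and 3, and its part in the members' values was not tested. Of 12 tested without cKO replicate 3, 1 rose and 1 fell (8.33% each, beside 13.7% and 14.9% of all genes). The gene that fell passed the filter only without that library, which can happen through control counts alone.

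Striated muscle genes summed to 41.1 to 52.9 CPM in cKO and 10.8 to 15.9 CPM in controls. Of 33 such genes 25 were in the table and 5 were tested. Tnnt3, a fast skeletal troponin, had 80, 70 and 153 counts in cKO and 0, 3 and 0 in controls (6.55, SE 1.38, edgeR adjusted p = 0.0406). It was called in 1 of 6 tests with 1 library left out, and its highest adjusted p was 0.163, without control replicate 3. Of 13 tested without cKO replicate 3, 5 rose (38.5%, beside 13.7% of all genes) and none fell (beside 14.9%). Of the 5 genes tested with all libraries, only Tnnt3 was among these. The other rises were of genes that passed the filter only without that library. Such genes can pass through their cKO counts alone, as Tnnt3 did with and without that library. Nothing is read from the direction of Tnnt3 or of the others. Myh7 averaged 7.28 CPM in cKO and 3.38 CPM in controls, and Neb had 0, 6 and 185 counts in cKO and 0 in each control. None of the 12 muscle lineage factors was tested: 4 were in the table, with a summed level of 0.698 to 2.35 CPM in cKO and 0 to 0.978 CPM in controls, and Tshz3, Myog and Gata6 had the highest cKO means. The log2 fold change of Myh7 was 1.10, and 0.50 without cKO replicate 3. The sarcomere sum was higher in every cKO library than in the controls, as were most members. It was 41.1, 45.5 and 52.9 CPM in cKO replicates 1, 2 and 3. In replicate 3, the library that stood apart, Neb, Tnnt3 and Myh7 were at 18.5, 15.3 and 12.2 CPM. The part of the sarcomere genes in the members' values was not tested.

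Basal and myoepithelial markers summed to 70.0 to 160.0 CPM in cKO and 11 to 14.0 CPM in controls. They were led in cKO by Krt17, which averaged 81.4 ± 34.5 CPM in cKO and 0.708 ± 0.382 CPM in controls (SD, n = 3 each; 6.82, SE 0.592, edgeR adjusted p = 0.00564). Trp63 (31.2 CPM) and Krt15 (6.87 CPM) had the next highest cKO means, against 9.55 and 1.43 CPM in controls, and were not called. Without cKO replicate 3 Trp63 rose (2.19, edgeR adjusted p = 6.67e-05). Of the markers not tested, Krt5 was at 5, 4 and 0 counts in cKO and 2, 10 and 12 in controls. Krt14 was at 0, 38 and 94 counts in cKO and 8, 2 and 0 in controls. Krt6a had 11, 6 and 0 in cKO and 0 in each control, and Oxtr had 33, 1 and 0 in cKO and 2, 0 and 4 in controls. All 3 markers tested had a positive log2 fold change. Of 9 endothelial and blood markers 3 were tested and none was called by edgeR (0 at an unadjusted p under 0.05, and 0 by DESeq2). They summed to 44.5 to 71.9 CPM in cKO and 41.3, 54.0 and 334 CPM in control replicates 1, 2 and 3, where Hba-a1 alone had 2589 counts in replicate 3. They were led in cKO by Ptprc (39.8 CPM), Hba-a1 (8.60 CPM) and Csf1r (2.13 CPM). With all libraries 1 of 3 basal markers rose (33.3%, beside 3.52% of all genes tested). Krt17, with 3, 11 and 8 counts in controls, passed the filter through its cKO counts, so nothing is read from its direction. Without cKO replicate 3, 2 of 3 basal markers and 1 of 6 endothelial and blood markers rose, beside 13.7% of all genes. The endothelial or blood marker that rose passed the filter only without that library. This can happen through cKO counts alone, so nothing is read from it. The part of either list in the members' values was not tested.

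The label of the cells fitted their markers in both groups. The 15 ureteric epithelium markers summed to 6794 to 7880.2 CPM in cKO and 11628 to 13116 CPM in controls, far above every other marker list. Their median log2 fold change was -0.71, and 6 of them fell (40%, beside 3.59% of all genes tested). Wnt11, a signal of the ureteric tip, averaged 386 ± 38.2 CPM in cKO and 1229 ± 81.5 CPM in controls (SD, n = 3 each; -1.67, SE 0.105, edgeR adjusted p = 0.00341). Hoxb7, whose sequences drive the Cre, Calb1, which encodes calbindin, and Gfra1, a co-receptor for GDNF, also fell, with edgeR log2 fold changes of -1.30 (SE 0.151), -0.71 (SE 0.0964) and -0.99 (SE 0.157). With 1 library left out at a time Wnt11 was called in 6 of 6 tests, Hoxb7 in 5, Calb1 in 3 and Gfra1 in 2. The highest edgeR adjusted p was 0.0529 for Hoxb7 and 0.0863 for Gfra1, both without control replicate 3. For Calb1 it was 0.0603, without cKO replicate 2. When cKO replicate 3 was left out, 9 of the 15 fell (60%, beside 14.9% of all genes).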

How the data were processed

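RNA was sequenced from sorted UB cells of 3 cKO and 3 control libraries. The authors deposited raw read counts per gene and FPKM values. HISAT2, HTSeq, Cufflinks, DESeq and GRCm39 are named, without roles, in the submitters' processing notes; per the labels' protocols the mRNA kit preserves strand, but the sources used here do not name the strand setting of counting, so antisense reads may be included. The deposited FPKM values equal the counts over 1 length per gene and 1 factor per library (largest relative deviation 2.21e-07). Promoter sequences are of RefSeq on another build, GRCm38.p6, so only their own coordinates are given.

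The counts were fitted with edgeR 4.0.16 in R 4.3.3 (filterByExpr, TMM, robust quasi-likelihood, group only). The SE is the log2 fold change over the square root of F. Alternatives used DESeq2 1.42.0 and limma 3.58.1. Steps were tested on simulated counts. No library was a copy of another (chi-square over degrees of freedom of at least 10.2 between replicates). A count of 0 allows up to 3 counts, 0.285 to 0.307 CPM per library, for counting error only. The members and the 14 lists were chosen with earlier results of these data known. Named are the members, Ash2l, relatives, Srf, Mrtfa, Mrtfb, Myocd, the 4 called genes of smallest p per list, the 3 highest markers of other cell types and the 3 nearest profiles; other genes named were chosen after their values were seen. The result of 1 list is not reported here.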

Additional observations from a re-analysis of the deposited data

How the results depend on the processing

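The number of genes called over the whole table, 459 that rose and 469 that fell, was 12 and 11 with the replicate number as a block, 1029 and 1020 with DESeq2, and 696 and 709 on log2(FPKM + 1). Leaving out 1 library at a time gave 62 to 1865 that rose and 59 to 2032 that fell, the highest without cKO replicate 3. The replicate numbers do not pair the libraries: same-numbered libraries deviated from their group means with r = -0.022, 0.025 and -0.00145 across genes, and not every library was closest to its own number. With the block no member, relative, smooth muscle or adhesion gene was called (0 in each direction). The median log2 fold change of the members was 2.68 over the 6 left by the stricter filter (at least 10 counts in each library) and 2.99 on log2(FPKM + 1), which understates low genes, and 3.22 to 4.06 with 1 library left out. Of the non-muscle relatives 5 rose and 2 fell with DESeq2, and 0 to 6 rose and 1 to 4 fell with 1 library left out. Of the smooth muscle genes 4 rose and 2 fell with DESeq2, 1 rose without a filter and on log2(FPKM + 0.1), 2 fell under the stricter filter, and 0 to 9 rose and 0 to 3 fell with 1 library left out. Of the adhesion genes 2 fell with DESeq2 and on log2(FPKM + 1), and 0 to 7 rose and 0 to 4 fell with 1 library left out. The cause was not tested. No member or called gene reversed its direction. For single list genes and Ash2l, 135 of the alternatives lost a call and 67 gained one, against 2150 that did neither. CArG boxes with 1 mismatch are counted in the report. Depth limits Actg2, Tpm2 and the controls of Actc1 and Cnn1, whose fold changes rest on few counts.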

Other observations

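Genes outside the 10 members whose promoter window holds an exact CArG box were counted by call. Of 169 such genes tested, 11 rose (6.51%) and 5 fell (2.96%), against 346 (3.36%) and 376 (3.66%) of 10287 genes without one. With 1 mismatch allowed the shares that rose were 3.24% with a box and 3.43% without. No test was made of these shares. Those that rose include the transcription factor gene Lef1 (log2 fold change 2.05, SE 0.381, edgeR adjusted p = 0.0285), the growth factor gene Pdgfc (0.72, SE 0.15, adjusted p = 0.0395) and Myl6 and Fermt2, which are on the lists above. Those that fell include Fhl1 and Tyms, the thymidylate synthase gene (-1.22, SE 0.131, adjusted p = 0.00644). Lef1, Pdgfc and Tyms were chosen after their values were seen. Of 937 tested genes outside the members with the letters TATAAA in a window, 5.98% rose and 2.99% fell, against 3.16% and 3.71% without them.

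Genes of epithelial to mesenchymal transition were mostly not called. Of 11 tested 1 rose (9.09%, beside 3.52% of all genes tested) and none fell, with a median log2 fold change of 0.19. The log2 fold change was positive for 9 and negative for 2, beside 6219 and 6828 of all genes tested. The gene that rose was Cdh2, N-cadherin, with 38, 42 and 188 counts in cKO and 0 in each control (edgeR adjusted p = 0.0439, and 0.136 without control replicate 3). Vim, vimentin, had 20, 25 and 123 counts in cKO and 21, 12 and 38 in controls (1.28, SE 1.00, adjusted p = 0.522), and its log2 fold change without cKO replicate 3 was -0.02. Fn1, fibronectin, was at -0.05 (SE 0.258, edgeR adjusted p = 0.942). Snai1 had 35, 23 and 117 counts in cKO and 4, 16 and 2 in controls, with every cKO library above every control. It was not called (3.03, SE 1.17, edgeR adjusted p = 0.182, and 2.04, adjusted p = 0.115 without cKO replicate 3). Of 12 tested without cKO replicate 3, 1 rose (8.33%, beside 13.7% of all genes) and none fell.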
